A study of Mus musculus with 4 samples.

Results

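Long noncoding RNAs that stay in the nucleus, together with transcripts grouped with them for an overlap with ribosomal RNA (rRNA), were followed through the cell types of the mouse testis by single-nucleus RNA sequencing. Members were taken by gene symbol, and 7 of the 8 listed symbols had a row among the 55357 features: Malat1, Neat1, Meg3, Kcnq1ot1, Tug1, Lars2 and Gm42826. No row carried the symbol Gm42418. The row Rn18s-rs5, for which the RefSeq gene table lists Gm42418 as a synonym, is given beside the members and is not counted as one of them. Lars2 and Gm42826 were selected on their summed UMI levels in spermatogonia-like nuclei, which were lower in Dhx37-/-, so their values in those nuclei are a description without a test. The samples were testes of 8-week-old male mice, with 2 libraries from WT littermates and 2 from Dhx37-/- mice. The Dhx37-/- mice carried Dhx37 alleles with loxP sites around exon 2 and an AMH-Cre transgene. The Amh promoter drives Cre in Sertoli cells, so the deletion was directed at that cell type alone and the germ cells, Leydig cells and macrophages of the same testes were not targeted. The libraries are named biological replicates in the labels, and the sources used here do not give the number of animals behind each.

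Malat1 is a long noncoding RNA of nuclear speckles, the bodies that store splicing factors, and Neat1 is the scaffold on which paraspeckles are built. Meg3 is transcribed from the maternal copy of the imprinted Dlk1-Dio3 domain, while Kcnq1ot1 is transcribed from the paternal copy within Kcnq1, on the opposite strand, and silences neighbouring genes in cis. Tug1 is a long noncoding RNA required for male fertility in mice. Lars2 encodes the mitochondrial leucyl-tRNA synthetase and is the only protein-coding member. Gm42826 is an unnamed gene model of unknown function. Dhx37 itself is a helicase of ribosome assembly, which acts on the precursor of the small subunit rRNA.

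In the GENCODE vM21 annotation of GRCm38, which may not be the build of the count tables, Malat1 and Neat1 are lincRNA genes on chromosome 19, Meg3 lies on chromosome 12 beside Rtl1, Kcnq1ot1 is antisense to Kcnq1 on chromosome 7 and Tug1 is annotated on chromosome 11 with Morc2a on the opposite strand. Lars2 lies on chromosome 9. Gm42826, on chromosome 3, overlaps no other gene and its nearest protein-coding neighbour, Ndst4, is 184523 bases away. The libraries were primed on runs of A. The longest such run in each member's transcripts follows in capitals, with 15 bases on either side, 5′ to 3′. It marks a site where priming inside the RNA could occur, and other runs are not shown.
Malat1: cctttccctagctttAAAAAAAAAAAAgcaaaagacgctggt
Neat1: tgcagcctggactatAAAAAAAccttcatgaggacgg
Meg3: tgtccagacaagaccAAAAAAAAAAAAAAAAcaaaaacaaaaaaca
Kcnq1ot1: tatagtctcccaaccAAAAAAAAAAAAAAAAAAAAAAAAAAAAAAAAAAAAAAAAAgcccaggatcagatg
Tug1: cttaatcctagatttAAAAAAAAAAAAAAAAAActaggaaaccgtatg
Lars2: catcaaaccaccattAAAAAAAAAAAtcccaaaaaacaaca
Gm42826: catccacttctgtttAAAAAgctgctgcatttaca
The run in Kcnq1ot1 was 41 bases long, and 14 of 40427 genes (0.0346%) had a run of at least that length. Runs of 12, 16 and 18 bases, as in Malat1, Meg3 and Tug1, were reached or passed in 7.48%, 2.90% and 1.94% of genes. These shares count each gene's longest transcript, whereas a member's run was sought in all its transcripts. Transcript length, 93092 bases for Kcnq1ot1, was not taken into account. The longest run was 11 bases in Lars2, in a transcript with a retained intron, 7 bases in Neat1 and 5 bases in Gm42826. How much of any member's signal was primed inside the transcript was not tested.

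A second pair of sequences shows what an overlap with rRNA looks like. The first is a 60-base stretch of Gm42418 on chromosome 17, and the second is the matching stretch of AY036118, annotated on its opposite strand.
Gm42418: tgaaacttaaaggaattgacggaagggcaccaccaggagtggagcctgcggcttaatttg
AY036118: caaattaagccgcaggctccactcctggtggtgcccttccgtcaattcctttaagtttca
The 2 stretches are reverse complements of each other. Of the 1812 20-base words of Gm42418, 1225 occurred in reverse complement in transcripts annotated as rRNA. All 904 words of AY036118 occurred there on the same strand. Another gene model, CT010467.1, overlaps both genes and is annotated on the strand of AY036118. Whether the matches came from that model was not tested, so their strand does not show which of the 2 stretches reads as rRNA. Lars2, with 11125 such words, and Gm42826, with 2620, shared none with annotated rRNA, mitochondrial rRNA or Gm42418 on either strand. The search covered annotated transcripts only. Introns outside these transcripts and the 45S pre-rRNA sequence were not searched, so an overlap of Lars2 or Gm42826 with rRNA was not tested beyond them.

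Each library held 8294 to 10038 nuclei with a median of 3302 to 4156 unique molecular identifiers (UMIs, 1 per captured RNA molecule), from 51797891 to 75611263 UMIs in all. Barcodes ranked 45000 to 90000 by UMIs gave the free RNA of each suspension (6918232 to 13045926 UMIs). They held at most 242 to 384 UMIs each, under the limit set for nuclei. Whether some of them hold nuclei with little RNA was not tested. Nuclei were assigned to 11 classes by marker genes, named Sertoli-like and so on. No class was given to 66.4% and 69.9% of WT nuclei and to 52.4% and 56.5% of Dhx37-/- nuclei. The gates thus kept a larger share of nuclei in Dhx37-/-, and the part of this in the genotype differences per class was not tested. The 9 classes with at least 20 nuclei in every library were tested between genotypes, with endothelial-like and peritubular myoid-like nuclei described only. In 8 classes every marker of the class was at 1.5 times its level in all nuclei or more, and in spermatocyte-like, elongating spermatid-like and round spermatid-like nuclei 10 of 11, 11 of 12 and 11 of 13 were. The gates used these same markers, so their levels are no separate evidence for the class names. Markers of another class also passed that level: 6 of 8 fibroblast markers in peritubular myoid-like, 5 of 7 peritubular myoid markers in fibroblast-like, and 5 of 10 and 4 of 10 early meiotic markers in spermatocyte-like and spermatogonia-like nuclei. Pairs of libraries shared 19 to 29 barcodes of nuclei. In the smallest tested groups, WT replicate 2 had 20 Sertoli-like nuclei and each WT library had 30 or 33 spermatogonia-like nuclei. Levels are given as CPM (UMIs of the gene per 1000000 UMIs) of the nuclei summed in a class. Dhx37 itself had 4 and 3 UMIs in the WT Sertoli-like nuclei and 12 and 13 in the Dhx37-/- ones, or 7.50, 24.7, 10.3 and 6.11 CPM, and UMIs read at the 3′ end do not report on exon 2.

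Malat1 was highest in Leydig-like nuclei, the steroid-producing cells of the interstitium, where it made up 10.6% and 22.5% of UMIs in WT replicates 1 and 2, and 17.5% and 17.9% in Dhx37-/- replicates 1 and 2. The mean there was 171232 ± 49437 CPM (SD, n = 4), which was 3.07 times the level in fibroblast-like nuclei (55855 ± 10858 CPM), and the ranges of the 2 classes did not overlap. Peritubular myoid-like nuclei followed at 42194 CPM, then endothelial-like (21610 CPM), macrophage-like (19111 CPM) and Sertoli-like nuclei (14886 CPM). All 6 somatic classes were above the free RNA of the same library in 4 of 4 libraries. Germ cell classes lay between 2048 ± 671 CPM in spermatocyte-like and 7718 ± 1561 CPM in round spermatid-like nuclei, against 6067 ± 1164 CPM in free RNA. Early meiotic-like and spermatocyte-like nuclei were below the free RNA in all 4 libraries.

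**Figure D1:**
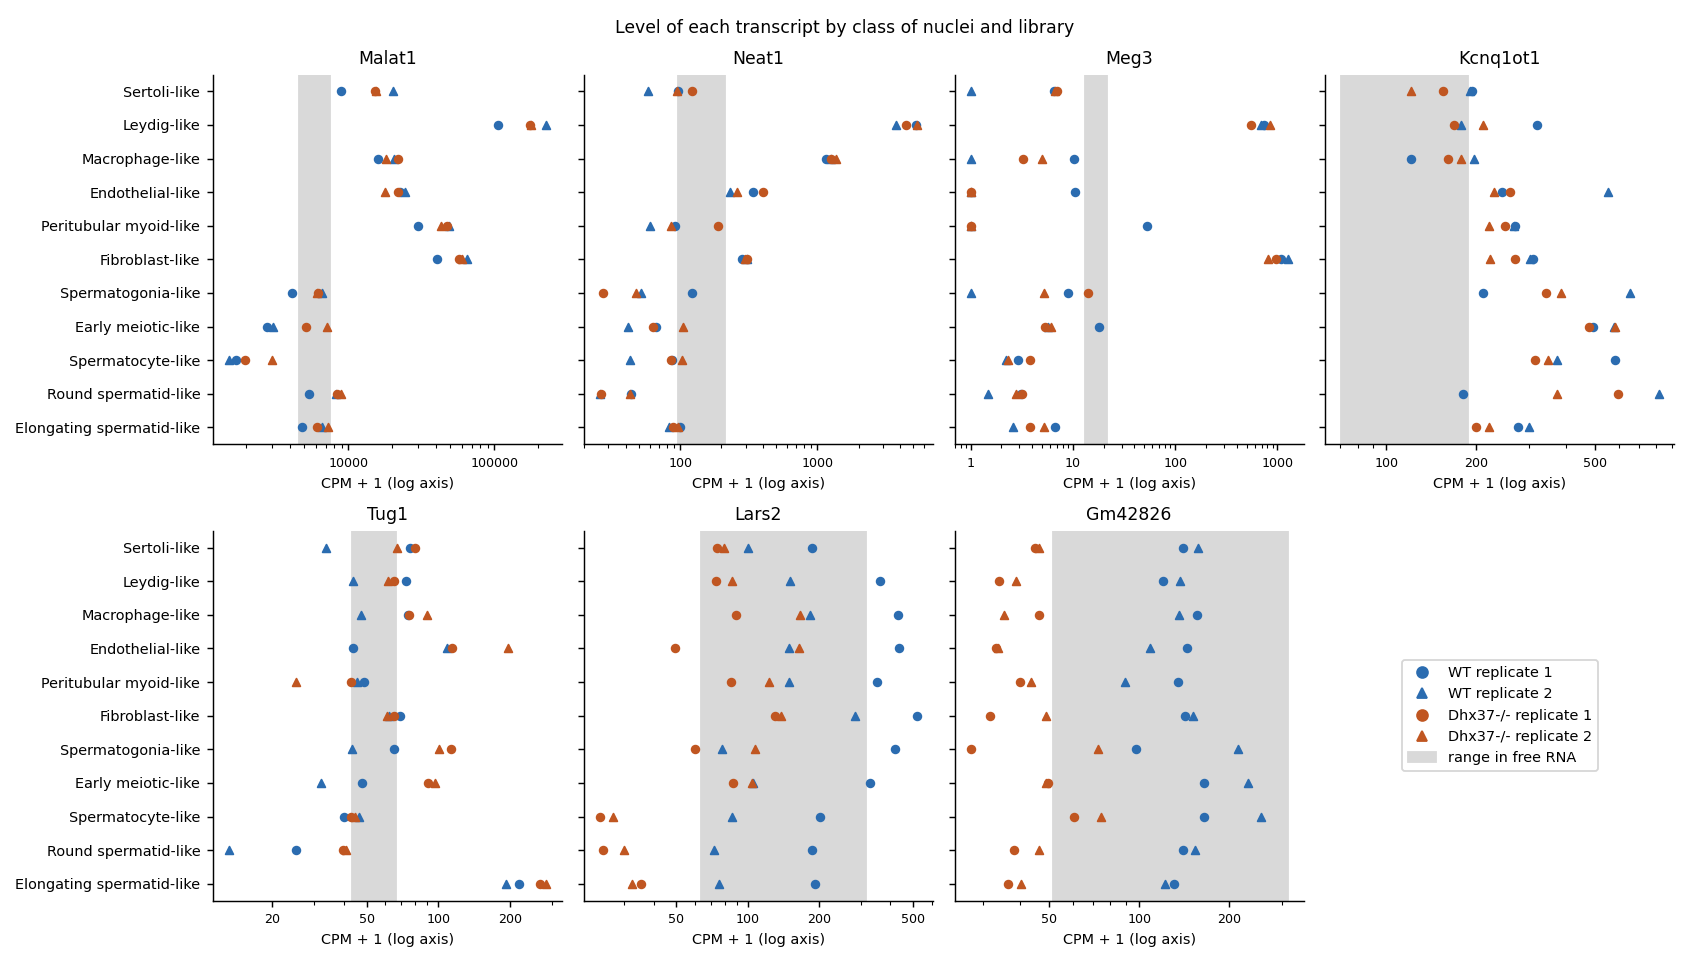
CPM + 1 on a log axis of each of the 7 transcripts (panels) in 11 classes of nuclei (rows), with 1 point per library (circles replicate 1, triangles replicate 2; blue WT, orange Dhx37-/-) and a grey band for the range in free RNA. Malat1 and Neat1 are highest in Leydig-like nuclei and Meg3 stands out in fibroblast-like and Leydig-like nuclei, while for Gm42826 the 2 genotypes separate in every row.

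The Malat1 share also varied from one Leydig-like nucleus to the next. The median nucleus drew 10.3% and 23.0% of its UMIs from Malat1 in WT, against 16.8% and 17.3% in Dhx37-/-. WT replicates 1 and 2 thus lay on either side of both Dhx37-/- libraries. In Dhx37-/- replicate 1 the 10th percentile was 1.11%, so that library held a tail of Leydig-like nuclei with little Malat1. Of its 322 Leydig-like nuclei, 291 were called by their UMI count alone. The rest had fewer UMIs and were kept by the test against free RNA. Whether they make up the tail was not tested. Leydig-like nuclei were 1.05% to 3.66% of nuclei and carried 29.1% to 50.6% of all nuclear Malat1 UMIs.

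**Figure D2:**
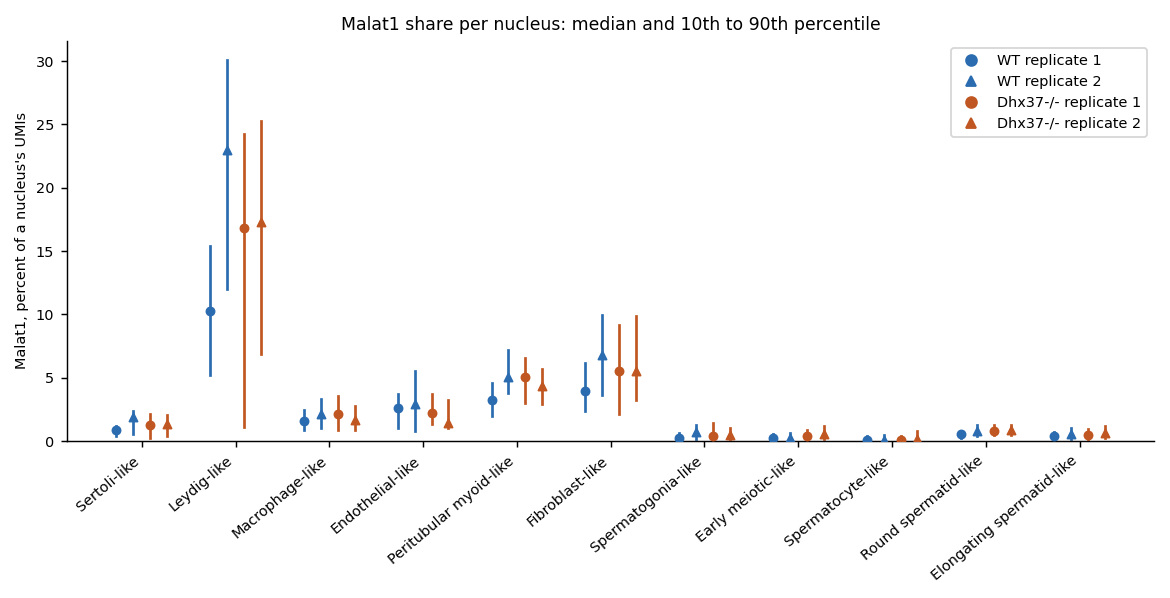
Percent of a nucleus's UMIs that come from Malat1 in each class, as the median (point) with the 10th to 90th percentile over nuclei (line) for each of the 4 libraries. The Leydig-like medians lie between 10.3% and 23.0%.

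Neat1 was also highest in Leydig-like nuclei, at 5222 and 3767 CPM in WT and 4450 and 5324 CPM in Dhx37-/- (4691 ± 729 CPM, n = 4). Macrophage-like nuclei came next (1265 ± 92.2 CPM), and neither class overlapped the class that followed it. Endothelial-like (307 ± 78.2 CPM) and fibroblast-like nuclei (296 ± 11.6 CPM) overlapped each other and exceeded free RNA by about the same ratio, 2.05 and 1.97. The other 7 classes had 33.7 to 106 CPM, below the free RNA mean of 150 CPM. Leydig-like nuclei carried 64.4 ± 12.5% of the nuclear Neat1 UMIs. With each nucleus thinned to 1000 UMIs, 90.7 ± 1.88% of Leydig-like and 61.9% of macrophage-like nuclei had a Neat1 UMI.

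Meg3 was confined by level to 2 of the 11 classes. Fibroblast-like nuclei had 1092 and 1262 CPM in WT and 968 and 815 CPM in Dhx37-/-. Leydig-like nuclei had 734 and 691 CPM in WT and 547 and 853 CPM in Dhx37-/-, and the 2 classes overlapped. The 9 other classes averaged 1.66 to 13 CPM, under the free RNA mean of 16.2 CPM. The highest of these means came from WT replicate 1 alone, where peritubular myoid-like nuclei had 51.9 CPM from 12 UMIs against 20.8 CPM in free RNA, and 0 UMIs in the other 3 libraries. Leydig-like and fibroblast-like nuclei together accounted for most Meg3 UMIs, 56.3 ± 12.5% and 30.7 ± 10.1%. After thinning, 54.1 ± 7.41% of fibroblast-like and 39.0 ± 4.57% of Leydig-like nuclei had a Meg3 UMI.

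Kcnq1ot1 had another order of means, with 4 of the 5 germ cell classes ahead of every somatic class and elongating spermatid-like nuclei lower down (248 ± 46.5 CPM). The mean was highest in early meiotic-like nuclei (490, 576, 476 and 582 CPM in WT 1, WT 2, Dhx37-/- 1 and Dhx37-/- 2, mean 531 ± 55.9), which led in Dhx37-/- replicate 2 only. Spermatocyte-like nuclei led in WT replicate 1 (582 CPM), and round spermatid-like nuclei led in WT replicate 2 (813 CPM) and Dhx37-/- replicate 1 (594 CPM). Round spermatid-like nuclei averaged nearly as much but ranged from 180 to 813 CPM, both extremes being WT libraries. Spermatocyte-like (403 ± 121 CPM) and spermatogonia-like nuclei (397 ± 187 CPM) followed, and every class overlapped its neighbour in the order. The lowest means were in Sertoli-like (164 ± 34.3 CPM) and macrophage-like nuclei (163 ± 32.3 CPM). Kcnq1ot1 was above the free RNA in all 4 libraries in 9 classes and in 3 libraries in Leydig-like and macrophage-like nuclei.

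Tug1 was highest in elongating spermatid-like nuclei, at 216 and 191 CPM in WT and 267 and 282 CPM in Dhx37-/-, above every other class mean of 28.8 to 115 CPM. Within each library it exceeded the endothelial-like value, the next in order, although the ranges of the 2 classes overlapped. The class that precedes it in development, round spermatid-like, had the lowest mean of the 11 at 24.3 and 12.2 CPM in WT and 38.7 and 39.8 CPM in Dhx37-/-, below free RNA in every library. Elongating spermatid-like nuclei carried 29.2 ± 1.62% of the nuclear Tug1 UMIs. After thinning, 19.2 ± 2.3% of them had a Tug1 UMI.

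Lars2 differed between classes within each library, on top of a wide spread between libraries. In fibroblast-like nuclei, the class with the highest mean, it had 516, 281, 129 and 136 CPM in WT 1, WT 2, Dhx37-/- 1 and Dhx37-/- 2. In round spermatid-like nuclei, the class with the lowest mean, it had 185, 70.8, 23.5 and 29 CPM. The order was not the same in each library: macrophage-like nuclei (165 CPM) exceeded fibroblast-like ones in Dhx37-/- replicate 2, and spermatocyte-like nuclei (22.7 and 25.9 CPM) were below round spermatid-like ones in both Dhx37-/- libraries. Every class overlapped its neighbour in the order of means, and fibroblast-like and macrophage-like nuclei were above the free RNA in all 4 libraries. WT replicate 1 had the highest Lars2 level in each class. Gm42826 varied less by class and ran from 76.0 ± 44.9 CPM in peritubular myoid-like to 138 ± 90.7 CPM in spermatocyte-like nuclei, against 167 CPM in free RNA. Only in spermatocyte-like nuclei did it exceed free RNA in more than 1 library, namely 3 of 4, so its level in the other classes cannot be told apart from free RNA taken up with the nuclei.

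The next comparison asked which members differed in level between all nuclei together and the free RNA of the same suspension. The 5 noncoding RNAs of known function had higher levels in nuclei, and Lars2 and Gm42826 had lower ones. Such levels follow the mix of nuclei. Without Leydig-like nuclei, Neat1 had 92.3 and 61.8 CPM in WT and 94.0 and 90.8 CPM in Dhx37-/-, below its free RNA mean. Meg3 then had 21.5 and 11.9 against 26.7 and 14.2 CPM, on either side of its free RNA mean. Malat1, Kcnq1ot1 and Tug1 stayed above the free RNA of the same library in each, without a test. In edgeR's quasi-likelihood test with library as a block and an adjusted p under 0.05, 67.4% of the 28782 genes tested were called. Of all genes, 36.7% were higher in nuclei and 30.7% lower, so a call by itself was common. Of the 7 members 4 were called higher and 2 lower.

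Kcnq1ot1 had 305 and 507 CPM in WT nuclei against 142 and 187 CPM in WT free RNA, and 344 and 317 CPM against 69.6 and 104 CPM in Dhx37-/-. Its log2 difference of 1.32 ± 0.19 (SE) was the greatest among the members (edgeR adjusted p = 2.067e-05). Meg3 followed at 1.06 ± 0.16 (edgeR adjusted p = 3.292e-05) and Tug1 at 0.64 ± 0.15 (edgeR adjusted p = 0.00194). Each of these 3 was higher in nuclei in 4 of 4 libraries.

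Malat1 rose by 0.85 ± 0.32 on the log2 scale, from 5976, 4627, 6195 and 7470 CPM in free RNA to 9213, 10859, 17960 and 16920 CPM in nuclei (edgeR adjusted p = 0.02717). The Malat1 call was lost without WT replicate 2 or either of the Dhx37-/- libraries. Neat1 had a log2 difference of 0.44 ± 0.19 and missed the threshold (edgeR adjusted p = 0.05352). The mean share of a member's UMIs found in nuclei ran from 66.0% for Neat1 to 77.0% for Kcnq1ot1 in these 5 RNAs, while nuclei held 52.2% to 60.7% of all UMIs.

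Lars2 fell by 1.15 ± 0.16 on the log2 scale, from 315, 167, 62.7 and 76.3 CPM in free RNA to 206, 72.7, 36.0 and 42.6 CPM in nuclei (edgeR adjusted p = 2.314e-05). Gm42826 fell by 0.90 ± 0.17 (edgeR adjusted p = 0.0002284). Both were lower in nuclei in all 4 libraries, with nuclei holding a mean of 39.7% of Lars2 and 49.1% of Gm42826 UMIs. Rn18s-rs5 moved further the same way, by -2.38 ± 0.37 (edgeR adjusted p = 4.83e-05), with 25.2% of its UMIs in nuclei.

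**Figure D3:**
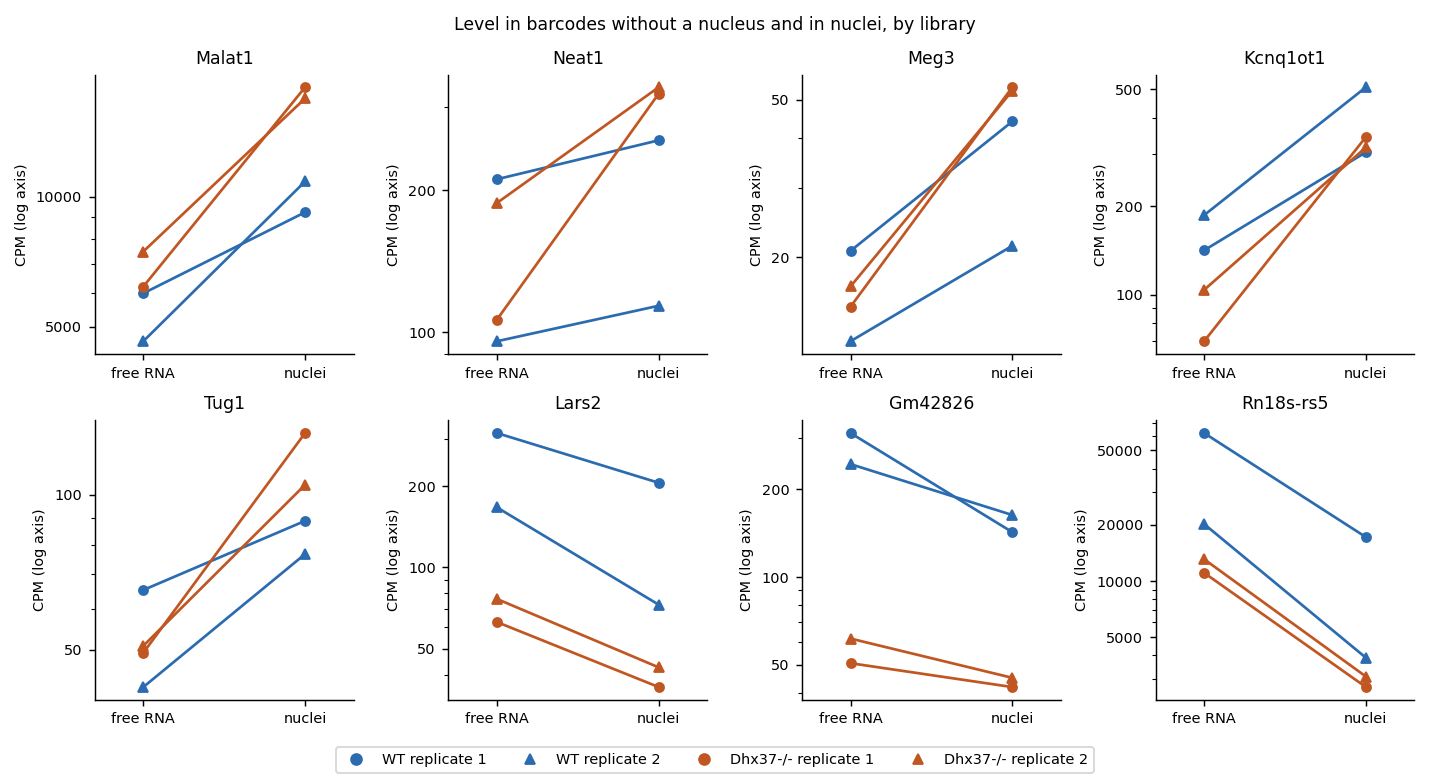
CPM (log axis) of the 7 members and Rn18s-rs5 in free RNA (left) and in all nuclei (right) of each library, joined by a line. The lines rise for Kcnq1ot1, Meg3, Tug1, Malat1 and Neat1 and fall for Lars2, Gm42826 and Rn18s-rs5 in all 4 libraries. The rise of Neat1 was not called by edgeR.

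Genes of related function were set beside the members as whole lists. Of 27 other long noncoding RNAs tested, 11 were called higher and 14 lower in nuclei (median log2 difference -0.73, against 0.19 over all genes). Airn, the imprinted antisense RNA of the Igf2r domain, was higher by 1.98 ± 0.18 and the small nucleolar RNA host gene Snhg3 lower by 2.14 on the log2 scale (edgeR adjusted p = 6.128e-07 and 3.601e-07). Of 10 imprinted neighbours of Meg3 and Kcnq1ot1, 2 were called higher and 6 lower. Those 2 were Rtl1 (1.49 ± 0.30) and Kcnq1 itself (1.24 ± 0.15), the host of Kcnq1ot1, at edgeR adjusted p = 0.0005178 and 6.137e-06. Dlk1, the growth regulator at the other end of the Meg3 domain, had -1.77 ± 0.39 (edgeR adjusted p = 0.0009126).

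Of the transcripts that encode 17 proteins of paraspeckles and speckles, 1 was called higher in nuclei and 12 lower. The one was Son, which encodes a speckle core protein (0.72 ± 0.21, edgeR adjusted p = 0.00685), and Hnrnpk was among the lower ones (-1.61 ± 0.16, edgeR adjusted p = 9.649e-07). Of 16 genes of mitochondrial aminoacyl-tRNA synthetases, the family of Lars2, 4 were called higher and 7 lower, with a median of 0.14. Nars2 (1.22 ± 0.17, edgeR adjusted p = 2.387e-05) lay on the other side from Lars2. All 11 mitochondrially encoded transcripts tested were called lower (median -1.32), as were mt-Rnr1 and mt-Rnr2, the mitochondrial rRNAs (-1.78 ± 0.23 and -1.80 ± 0.25). Of 18 genes of RNA polymerase I and rRNA transcription, 2 were called higher and 11 lower.

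Between genotypes, Gm42826 was called lower in Dhx37-/- in 2 classes and Lars2 in 1, all of germ cells that the deletion did not target, and none of the 5 noncoding RNAs of known function was called in any class. By overlap of the libraries, Gm42826 and Lars2 were each lower in Dhx37-/- in all 8 classes outside the one they were chosen by, while by the same measure Tug1 was higher in 5 and Kcnq1ot1 lower in 4 of the 9 classes. That pattern of 8 of 8 was shown by 0.0984% of 10166 genes. The 8 classes come from the same 4 libraries as the choice of the 2 genes and share their free RNA. They are therefore not 8 separate observations, and the share is a description without a test. The call counts over all genes were uneven. In edgeR's quasi-likelihood test at an adjusted p under 0.05, 17.8% of genes tested were called in spermatogonia-like, 8.91% in early meiotic-like and 4.46% in spermatocyte-like nuclei. These split into 13.5% lower and 4.36% higher, 6.56% lower and 2.35% higher, and 3.04% lower and 1.42% higher. In macrophage-like nuclei 0.0115% and in round spermatid-like nuclei 0.013% were called, and 0% in the other 4 classes, in all nuclei together and in free RNA. At an unadjusted p under 0.05 edgeR had 832 to 1451 genes in those 4 classes, 4442 in all nuclei and 4114 in free RNA, and DESeq2 called 0 to 11, 270 and 330. The low counts moved with the libraries included: without WT replicate 2, edgeR called 562 genes in Sertoli-like and 193 to 785 in the 5 other classes of this kind, and without WT replicate 1 it called 27 to 635. The number of members that passed the filter on low counts was 7 in Leydig-like, fibroblast-like and elongating spermatid-like nuclei, 6 in 5 other classes and 5 in spermatogonia-like nuclei. Meg3 was the one left out in the 5 classes, and Meg3 and Neat1 in spermatogonia-like nuclei.

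Gm42826 had 143 and 163 CPM in all WT nuclei and 41.9 and 45.0 CPM in all Dhx37-/- nuclei, where 19.2% of genes were lower without overlap. The genotypes did not overlap in any class. In early meiotic-like nuclei, with 164 and 229 CPM against 48.4 and 47.6 CPM, it fell by 2.11 ± 0.31 on the log2 scale (edgeR adjusted p = 0.03648). In spermatocyte-like nuclei, with 164 and 255 CPM against 59.6 and 73.4 CPM, it fell by 1.59 ± 0.27 (edgeR adjusted p = 0.0292). These were its 2 called classes. The first call was lost without TMM scaling (edgeR adjusted p = 0.05601), as were all calls in that class, and the second without Dhx37-/- replicate 1 or 2 (edgeR adjusted p = 0.152 and 0.1016). Of the 11 spermatocyte markers, 4 were higher and 2 lower in Dhx37-/- without overlap in spermatocyte-like nuclei, with sums of 3108 and 3010 CPM in WT and 3532 and 3391 CPM in Dhx37-/-. The part of these marker shifts in the calls of that class was not tested.

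In the classes without a call the log2 differences of Gm42826 were much the same size. Sertoli-like nuclei, the targeted cell type, had 139 and 156 CPM in WT and 43.8 and 45.1 CPM in Dhx37-/-, a difference of -1.79 ± 0.30 (edgeR adjusted p = 0.1275). Over the 8 classes outside spermatogonia-like nuclei the range was -2.11 to -1.59. The spermatogonia-like values, by which Gm42826 was chosen, were 96.3 and 213 CPM in WT and 26.2 and 71.9 CPM in Dhx37-/-, from 12, 25, 4 and 34 UMIs. The free RNA had 312 and 244 CPM in WT and 50.6 and 61.5 CPM in Dhx37-/-, a difference of -2.20 ± 0.40 (edgeR adjusted p = 0.154). In free RNA 30.9% of genes were lower without overlap and 26.6% higher.

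Lars2 had 206 and 72.7 CPM in all WT nuclei and 36.0 and 42.6 CPM in all Dhx37-/- nuclei. In spermatocyte-like nuclei, with 202 and 85.0 CPM in WT and 22.7 and 25.9 CPM in Dhx37-/-, it fell by 2.54 ± 0.41 on the log2 scale (edgeR adjusted p = 0.02873), its single call. Its level there was below free RNA in all 4 libraries (315 and 167 CPM in WT, 62.7 and 76.3 CPM in Dhx37-/-). Free RNA itself had a genotype difference of -1.67 ± 0.42 for Lars2 (edgeR adjusted p = 0.154). In each of the 9 classes WT replicate 1 exceeded WT replicate 2 by more CPM than WT replicate 2 lay from either Dhx37-/- library. The genotypes did not overlap in the 8 classes outside spermatogonia-like nuclei. In early meiotic-like nuclei this rested on 105 CPM in WT replicate 2 and 103 CPM in Dhx37-/- replicate 2.

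The class by which Lars2 was chosen did overlap. Spermatogonia-like nuclei had 417 and 76.6 CPM of Lars2 in WT and 59.0 and 106 CPM in Dhx37-/-, from 52, 9, 9 and 50 UMIs. Without WT replicate 1 the log2 difference there turned from -1.61 to 0.09. In the 8 other classes Lars2 was called lower in 4 without WT replicate 1 and in 8 without WT replicate 2. Gm42826 was called lower in all 8 without either WT library. In such fits 1 library stands alone and is assumed to vary like the pair of the other genotype, so the calls gained give no added support. Without either Dhx37-/- library the counts were 2 for Gm42826 and 2 or 3 for Lars2.

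**Figure D4:**
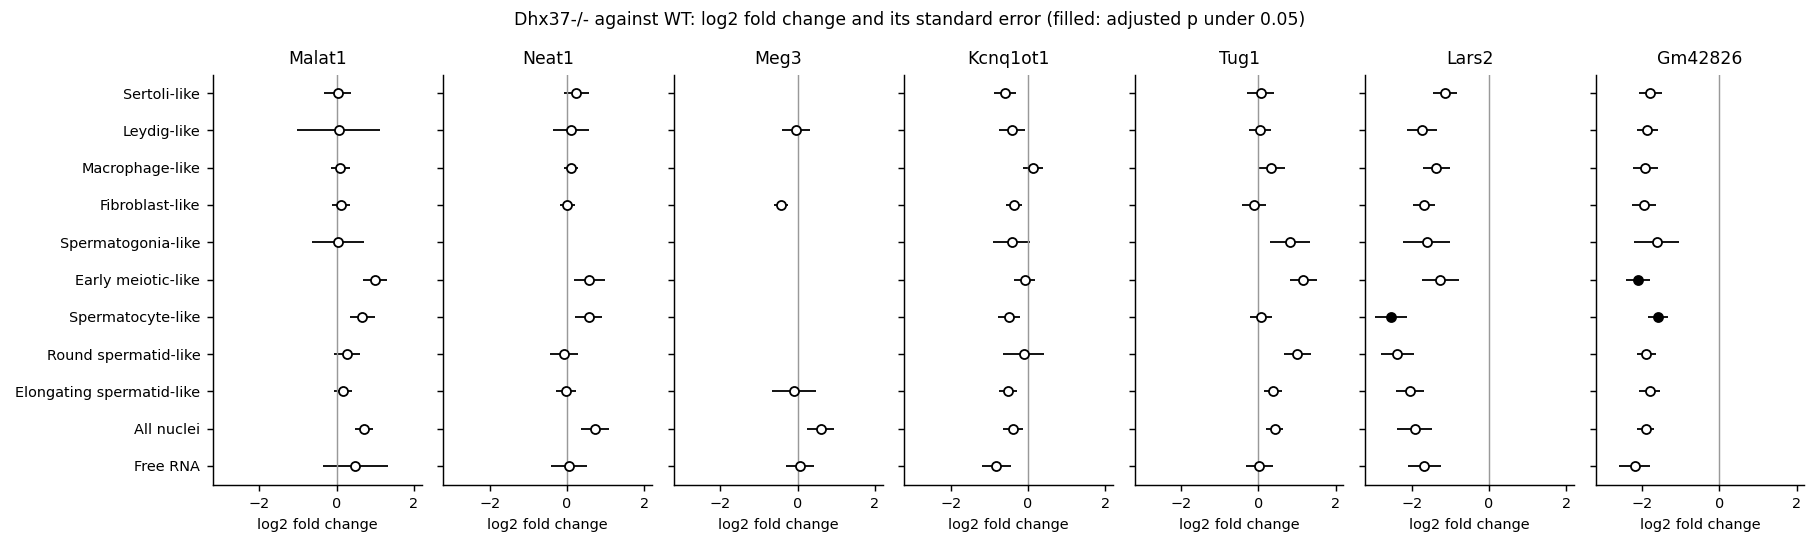
Log2 difference (Dhx37-/- over WT, points) with its standard error (bars) of each member in the 9 tested classes, in all nuclei and in free RNA, with filled points for an edgeR adjusted p under 0.05. The filled points are Gm42826 in early meiotic-like and spermatocyte-like nuclei and Lars2 in spermatocyte-like nuclei.

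Rn18s-rs5 moved with Lars2 across the libraries. It had 17190 and 3885 CPM in all WT nuclei and 2706 and 3082 CPM in all Dhx37-/- nuclei, and 62000, 20192, 11067 and 13089 CPM in free RNA in the same order. Per 1000 Rn18s-rs5 UMIs, Lars2 had 12, 18.7, 13.3 and 13.8 UMIs in all nuclei, and the genotypes overlapped in 7 of the 9 classes, with Dhx37-/- lower in round spermatid-like and higher in Sertoli-like nuclei. Per 1000 Rn18s-rs5 UMIs, Gm42826 had 8.30, 42.0, 15.5 and 14.6 UMIs and overlapped in 9 of 9 classes. In free RNA this ratio did not overlap for Gm42826, with 5.04 and 12.1 in WT and 4.57 and 4.69 in Dhx37-/-. That of Lars2 did overlap there (5.07 and 8.26 against 5.66 and 5.83). The part of rRNA signal or free RNA in the lower Lars2 and Gm42826 levels was not tested apart from these values. The test of whether the genotype difference in nuclei differed from that in free RNA called 0 of 28782 genes in edgeR (2997 at an unadjusted p under 0.05, and 2 by DESeq2), with -0.23 ± 0.31 for Lars2 and 0.19 ± 0.32 for Gm42826.

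**Figure D5:**
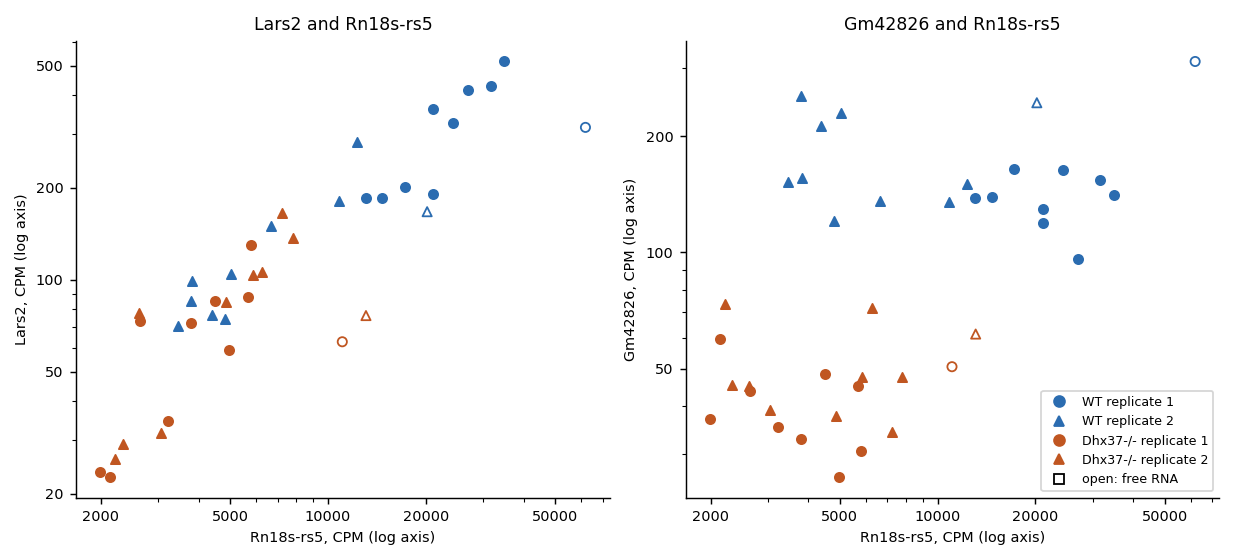
CPM of Lars2 (left) and Gm42826 (right) against CPM of Rn18s-rs5, both axes log, for the 9 tested classes (filled) and the free RNA (open) of each library. Lars2 rises with Rn18s-rs5 over the points, and Gm42826 forms separate WT and Dhx37-/- bands.

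Malat1, Neat1, Meg3, Kcnq1ot1 and Tug1 gave 38 tests in the 9 classes, with log2 differences from -0.59 to 1.16. edgeR called 0 of them, with 5 at an unadjusted p under 0.05, and DESeq2 called 1, Malat1 in early meiotic-like nuclei. That 0 became 6 without WT replicate 1, 4 without WT replicate 2 and 1 without either Dhx37-/- library. The nearest to the threshold were both in early meiotic-like nuclei. Tug1 had 47.0 and 31.2 CPM in WT and 89.6 and 95.8 CPM in Dhx37-/- there, a difference of 1.16 ± 0.34 (edgeR adjusted p = 0.06535). Malat1 had 2795 and 3056 CPM in WT and 5127 and 7171 CPM in Dhx37-/-, a difference of 1.00 ± 0.31 (edgeR adjusted p = 0.07218). The markers of that class moved with genotype as well. Of its 10 markers 6 were higher and 1 lower in Dhx37-/- without overlap, and together they had 3413 and 2952 CPM in WT and 4200 and 4744 CPM in Dhx37-/-. The meiotic recombination gene Meiob had 35.6 and 73.4 CPM in WT and 226 and 270 CPM in Dhx37-/-. Their part in the differences of Tug1, Malat1 and Gm42826 in early meiotic-like nuclei was not tested.

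By overlap of libraries alone, Tug1 was higher in Dhx37-/- in 5 of the 9 classes, as were 15.7% of genes in at least 5. Malat1 was higher in 3 classes, all of germ cells, as were 38.2% of genes in at least 3. Kcnq1ot1 was lower in 4 classes, as were 18% of genes in at least 4. None of these counts was rare among genes. In Leydig-like nuclei, where Malat1 and Neat1 were highest, the differences were 0.05 ± 1.07 and 0.11 ± 0.46.

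In all nuclei together, Malat1 did not overlap between genotypes (9213 and 10859 against 17960 and 16920 CPM), and neither did Neat1 (255 and 114 against 320 and 331 CPM). The same held for Meg3 (44.1 and 21.4 against 53.8 and 52.7 CPM) and Tug1 (88.9 and 76.7 against 132 and 104 CPM). Of all genes, 32.1% were higher without overlap in the same sums. Such sums follow the mix of nuclei, and fewer nuclei of a type cannot be told apart from less RNA in each. Leydig-like nuclei were 2.22% and 1.05% of WT and 3.66% and 3.20% of Dhx37-/- nuclei. Without them, Neat1 overlapped (92.3 and 61.8 against 94.0 and 90.8 CPM), as did Meg3 (21.5 and 11.9 against 26.7 and 14.2 CPM). Malat1 was still higher in both Dhx37-/- libraries (6053 and 7805 against 9366 and 9125 CPM), and so was Tug1 (89.5 and 77.1 against 135 and 107 CPM). The mix that remained also differed, with Sertoli-like nuclei at 0.68% and 0.24% of all WT and 1.94% and 2.61% of all Dhx37-/- nuclei. The part of that mix was not tested.

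Of the 7 lists set beside the members, 13 genes were called between genotypes in spermatogonia-like, early meiotic-like or spermatocyte-like nuclei and none in the other classes. The share of all genes called in these 3 classes was 17.8%, 8.91% and 4.46%, of which 4.36%, 2.35% and 1.42% were higher and 13.5%, 6.56% and 3.04% lower. Among the 4 rRNA-overlap and satellite transcripts tested in spermatocyte-like nuclei, AY036118 rose by 2.22 ± 0.45 (edgeR adjusted p = 0.03542). The other 3 there were not called and had differences below 0. These were -2.27 ± 0.63 for Rn18s-rs5, -0.80 ± 0.32 for mt-Rnr1 and -0.84 ± 0.37 for mt-Rnr2. Of the other long noncoding RNAs there, 2 of 19 rose (Mirg, a microRNA host beyond Meg3, by 2.72 ± 0.57, and Snhg3 by 1.23 ± 0.29) and Rmst fell by 1.76 ± 0.31 (edgeR adjusted p = 0.0373, 0.04474 and 0.02943). Mir17hg rose by 2.43 ± 0.48 in early meiotic-like nuclei (1 of 21, edgeR adjusted p = 0.03648) and Sox2ot fell by 2.10 ± 0.52 in spermatogonia-like nuclei (1 of 5, edgeR adjusted p = 0.02062). Of 17 genes of speckle and paraspeckle proteins in early meiotic-like nuclei, those of the splicing coactivators Srrm1 (1.48 ± 0.30) and Srrm2 (1.08 ± 0.26) rose (edgeR adjusted p = 0.03648 and 0.04435). In spermatogonia-like nuclei Srrm2 alone of 15 rose, by 1.87 ± 0.38 (edgeR adjusted p = 0.01192). The list medians in these 2 classes were 0.52 and 0.87, against 0.02 and 0.03 over all genes. Of 18 RNA polymerase I genes with a row, 6 passed the filter on low counts in spermatogonia-like nuclei. Of these 6, Polr1a, Ncl and Taf1d rose, by 1.92 ± 0.60, 1.84 ± 0.49 and 1.76 ± 0.40 (edgeR adjusted p = 0.04405, 0.02662 and 0.01628). A gene could pass the filter through the 2 libraries of 1 genotype alone, where it was high. Whether the list genes called in spermatogonia-like nuclei entered that way was not tested. The markers of that class moved with genotype too, with 4 of 10 higher and 3 lower in Dhx37-/- without overlap. The progenitor marker Zbtb16 had 96.3 and 59.6 CPM in WT and 229 and 366 CPM in Dhx37-/-, and the part of these shifts in the list genes was not tested. Of 16 RNA polymerase I genes in early meiotic-like nuclei Taf1b rose, by 1.59 ± 0.37 (edgeR adjusted p = 0.04059). Of the 11 genes of mitochondrial aminoacyl-tRNA synthetases tested in spermatocyte-like nuclei, Wars2 fell by 1.33 ± 0.31 (edgeR adjusted p = 0.04647).

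The genes whose levels most resembled each member were read from 36 sums, the 9 classes in 4 libraries, over 10260 genes, as a description. Sums of 1 library share its depth and free RNA. For Malat1 these were Cd81, Pgrmc1 and Gstm1 (Pearson r = 0.91, 0.90 and 0.90), and for Neat1 Irf8, Dhrs3 and Serinc3 (0.95, 0.92 and 0.92). Meg3 was most like Rims4, Gm29683 and Cxcl12 (0.94 each) and Tug1 most like Clasrp, Arpp19 and Chmp5 (0.90 each). Kcnq1ot1 reached 0.79 with Nell2, Taf15 and Iftap. Lars2 was most like Rn18s-rs5 (0.94), then mt-Rnr2 (0.81) and Cdk8 (0.75). Gm42826 had no close match, with 0.64 for Abcb10 and 0.58 for Cmss1 and Slc6a11.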

How the data were processed

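Nuclei of mouse testes were profiled with a 10x Chromium Single Cell 3′ kit (version 3). The authors deposited unfiltered UMI counts per gene and barcode for each of 4 libraries, with Cell Ranger 7.2.0 in the file headers. The submitters' processing notes name GRCm38, mm10 and Seurat 3.1.1, and the study's methods name another mouse build and Cell Ranger release, so no coordinates are given. Whether counts include intronic reads is not given in the sources used here.

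Nuclei were barcodes over the UMI step (99th percentile of 8000 expected nuclei, divided by 10) or apart from free RNA (10000 simulations, adjusted p under 0.01), with at least 500 UMIs, 500 to 5000 genes and no more than 25% of UMIs from mitochondrial genes. Doublets marked by Scrublet (scanpy 1.11.5) were removed in an alternative only. A nucleus took the class with the highest marker score (at least 0.6 for somatic and 0.3 for germ cell classes, 0.15 above the next, 3 or more markers detected). The score is the mean log2 ratio of UMIs to those predicted at its depth, with a pseudocount of 0.5. These limits were set after the nuclei were seen, and many germ cell nuclei lie within 0.1 of them. Members and lists were chosen with earlier results of these data known. The markers Wee2, Pls1, Rad51b, Pdgfc, Foxp2, Cntn3, Fmo5 and Ppm1l were taken from such results.

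UMIs were summed per library and class. edgeR 4.0.16 (quasi-likelihood, TMM, filtered for low counts, R 4.3.3) gave 2-sided tests with Benjamini-Hochberg adjustment over all genes tested, and SE is the log2 difference over the square root of F. With 2 libraries per genotype, the tests set each genotype difference against the spread between these libraries. That spread is estimated for each gene with information shared across genes. DESeq2 1.42.0, other scalings, filters, gates and left-out libraries were alternatives. Shares of nuclei were taken after thinning to 1000 UMIs, without the 195 to 549 nuclei per library below that. Named were all members, list genes called between genotypes, list genes with the greatest differences between nuclei and free RNA (up to 3 per direction, of which examples are printed), and the 3 genes most like each member by Pearson correlation of log2(CPM + 1), among genes of at least 20 CPM. The list symbols Gm26917, Rn45s, Nespas, Cyrano, Twistnb, Polr1g and Znrd1 had no row. Sequences are from GENCODE vM21. Analyses used Python 3.11.15 with numpy 2.4.6, scipy 1.17.1 and pandas 2.3.3.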

Additional observations from a re-analysis of the deposited data

Results flagged for a closer look

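Neat1 and Meg3 each moved in opposite directions between genotypes in a pair of classes, with no overlap between the WT and Dhx37-/- libraries in either. The differences between classes were not tested. Neat1 had 120 and 51.0 CPM in WT and 26.2 and 46.5 CPM in Dhx37-/- spermatogonia-like nuclei (-1.24 as log2 of the ratio of means), from 15, 6, 4 and 22 UMIs, and these levels were below free RNA. In macrophage-like nuclei, where Neat1 was well above free RNA, it had 1149 and 1266 CPM in WT and 1269 and 1375 CPM in Dhx37-/- (0.13). Meg3 had 1092 and 1262 CPM in WT and 968 and 815 CPM in Dhx37-/- fibroblast-like nuclei (-0.40). Its Sertoli-like difference of 1.05 came from 3, 0, 7 and 12 UMIs, at 5.62 and 0 CPM in WT and 6.02 and 5.64 CPM in Dhx37-/-, all below free RNA. Among genes of at least 20 CPM, levels without overlap in the same direction were found for 25.4%, 21.9% and 16.2% in the first 3 classes. Meg3 in Sertoli-like nuclei is below that level.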

How the results depend on the processing

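Members called in the 9 classes, leaving out Lars2 and Gm42826 in spermatogonia-like nuclei, numbered 3, against 9 with DESeq2, 16 without a filter on low counts, 5 with doublets removed and 5 to 20 with 1 library left out. In free RNA 0 became 2 with DESeq2 or no filter and 0 to 3 with 1 library left out, and the nuclei-by-genotype test gave 0 to 1. The log2 difference of Kcnq1ot1 in Leydig-like nuclei ran from -0.74 to 0.040 and that of Lars2 in spermatogonia-like nuclei from -2.37 to 0.090 with 1 library left out. Of 647 alternatives to the 52 log2 differences over 1 SE from 0, 546 kept direction and side, 6 lost the call (Malat1 in nuclei against free RNA in 3, Gm42826 in the rest), 90 gained one, 2 reversed and 3, of values without a test, moved by over 1 SE; the other 32 were not followed. Unthinned shares of nuclei with a UMI were 99.8% (Malat1), 79.2% (Meg3), 65.7% (Kcnq1ot1), 39.0% (Tug1), 53.1% (Lars2) and 42.1% (Gm42826) in the class highest for each. Neat1 in Leydig-like nuclei was 5767 CPM with the members and the rRNA-overlap list taken out of the totals. The causes were not tested.

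Genes called in spermatogonia-like nuclei (785) became 215 with DESeq2, 366 without TMM, 355 without doublets and 0 to 2558 with 1 library left out. In early meiotic-like nuclei 1196 became 0 without TMM, 2897 without a filter and 219 to 2779, and in spermatocyte-like nuclei 626 became 1803 without a filter and 88 to 2867. The 0 of all nuclei became 270 with DESeq2 and 18 to 5843, the 0 of free RNA 330, 1033 without a filter and 1 to 7519, and the 0 of the nuclei-by-genotype test 50 without a filter and 0 to 7012. In the 6 classes with 0 to 2 calls, no filter gave 0 to 116, and leaving out 1 library gave 0 to 562 in Sertoli-like, 0 to 785 in Leydig-like, 24 to 282 in macrophage-like, 0 to 498 in fibroblast-like, 5 to 675 in round spermatid-like and 3 to 635 in elongating spermatid-like nuclei. Replicate numbers mark nothing shared in the labels, and the correlation of same-numbered deviations was -0.51 to 0.02. With a replicate block 7 members were called, and 300, 1114, 128, 18 and 32 genes in spermatogonia-like, spermatocyte-like, macrophage-like and elongating spermatid-like nuclei and free RNA. Stricter gates in spermatogonia-like nuclei and the UMI step alone in Sertoli-like nuclei left under 20 nuclei and gave no fit.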

Other observations

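Apart from Gm42826, 8 genes were lower in both Dhx37-/- libraries than in both WT libraries in all 9 classes: Atxn2l, Cmss1, Cntn5, Cpvl, Gm43263, Lrrc4c, Pdzrn4 and Slc6a11. With Gm42826 included, these are 9 of 10260 genes (0.0877%) with a mean of at least 20 CPM over the classes. By the same measure 72 (0.702%) were higher in all 9. Spermatogonia-like nuclei, by which Gm42826 was chosen, are 1 of the 9 classes, so its count is a description without a test. The classes share 4 libraries and their free RNA and are not 9 separate observations. The 8 were singled out after their values were seen. All 8 were also lower without overlap in free RNA. Cmss1, named as a homolog of a small ribosomal subunit factor, had 1168 and 819 CPM in all WT nuclei and 631 and 640 CPM in all Dhx37-/- nuclei. Gm43263, another unnamed gene model, had 197 and 225 CPM in WT and 87.0 and 119 CPM in Dhx37-/-. Over the 9 classes, with spermatogonia-like nuclei among them, the log2 ratio of the Dhx37-/- to the WT mean ran from -2.03 to -1.65 for Gm42826. For Gm43263 it ran from -3.76 to -0.82.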
